A study of Mus musculus with 6 samples.

Results

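The genes described here are 40 mouse genes that bring long-chain fatty acids into the heart muscle cell and burn them: the uptake proteins, the lipid droplet enzymes, the carnitine shuttle, the enzymes of mitochondrial beta-oxidation, and the PPAR-alpha regulators with their target genes. They were chosen by symbol for their role, not by a measured value of their own, but with earlier results of these data known. All 40 were found among the 47729 gene IDs of the deposited table, and all 40 were among the 17365 genes kept for testing. RNA came from left ventricular myocardium of mice 9 days after transverse aortic constriction (TAC), surgery in which a narrowed aorta makes the left ventricle pump against raised pressure. The Treg group (3 libraries) is described by the series title as given regulatory T cells that were induced in culture and deprived of CD28 signalling, and the control group (3 libraries) also had TAC. What the control group received, and the strain, sex and age of the mice, are not stated in the labels, so the cells and the way they were given cannot be told apart. No group without TAC was analysed here. Whether every library is a different mouse is not stated either, so the spread between libraries may be partly technical.

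The adult heart draws most of its energy from long-chain fatty acids. Lipoprotein lipase releases them from circulating triglyceride, CD36 and the fatty acid transport proteins carry them across the membrane, and binding proteins and acyl-CoA synthetases hold and activate them. The carnitine shuttle moves the activated chains into mitochondria, where each turn of the beta-oxidation spiral removes acetyl-CoA and passes electrons to the respiratory chain. PPAR-alpha, a nuclear receptor that binds fatty acids, switches on many of these genes together with its coactivator PGC-1-alpha, and both are known to decline in hearts that enlarge under pressure.

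Totals lay between 29841591 and 29979080 counts in the Treg libraries and between 28937253 and 29842787 in the control libraries, so depth was nearly equal. Each level is in CPM (counts scaled to a common library size), and each difference is given as a log2 fold change of Treg over control. Cardiomyocyte markers were abundant in every library, with 12 genes summing to between 58666 and 78213 CPM in the Treg group and between 45894 and 66035 CPM in the control group. Of these 12 markers, 10 had a fold change above 0 (83.3%, beside 48.0% of all genes). Their median log2 fold change was 0.31, and 0.27 without control replicate 3. Control replicate 3 stood apart from the other 5 libraries: it was the highest library for 33.3% and the lowest for 31.9% of all genes tested, and it had the lowest cardiomyocyte marker sum. Treg replicate 3 held atrial transcripts, with 162.6 CPM over 5 atrial markers, against 28.7 CPM in the lowest Treg library and between 15.6 and 48.5 CPM in the control libraries. Values without control replicate 3 are therefore given for many members, and the plot of fold changes shows them for all 40. In bulk tissue, fewer cells of a type and less RNA per cell cannot be told apart.

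No member passed an adjusted p of 0.05 between the Treg and control groups (0 of 40, edgeR quasi-likelihood test with Benjamini-Hochberg adjustment), and neither did any of the 17365 genes (0%). The members leaned neither way in number: 22 of 40 (55.0%) had a fold change above 0, beside 48.0% of all genes. At an unadjusted p under 0.05, 4 members were higher in the Treg group (10%; background 8.23%) and 0 were lower (background 8.31%). The Treg libraries all lay above the control libraries for Cpt2, Crat, Ppara and Ppargc1a (10% of the members; background 13.7%), and no member had all Treg libraries below all control libraries (background 11.7%). The shares of members higher in the Treg group were near the background, while the shares lower in it were 0 of 40 and below the background. DESeq2, run as an alternative, called Ppara and Cpt2 higher, 2 members among 644 genes called (3.71%), while limma-voom called none.

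**Figure D1:**
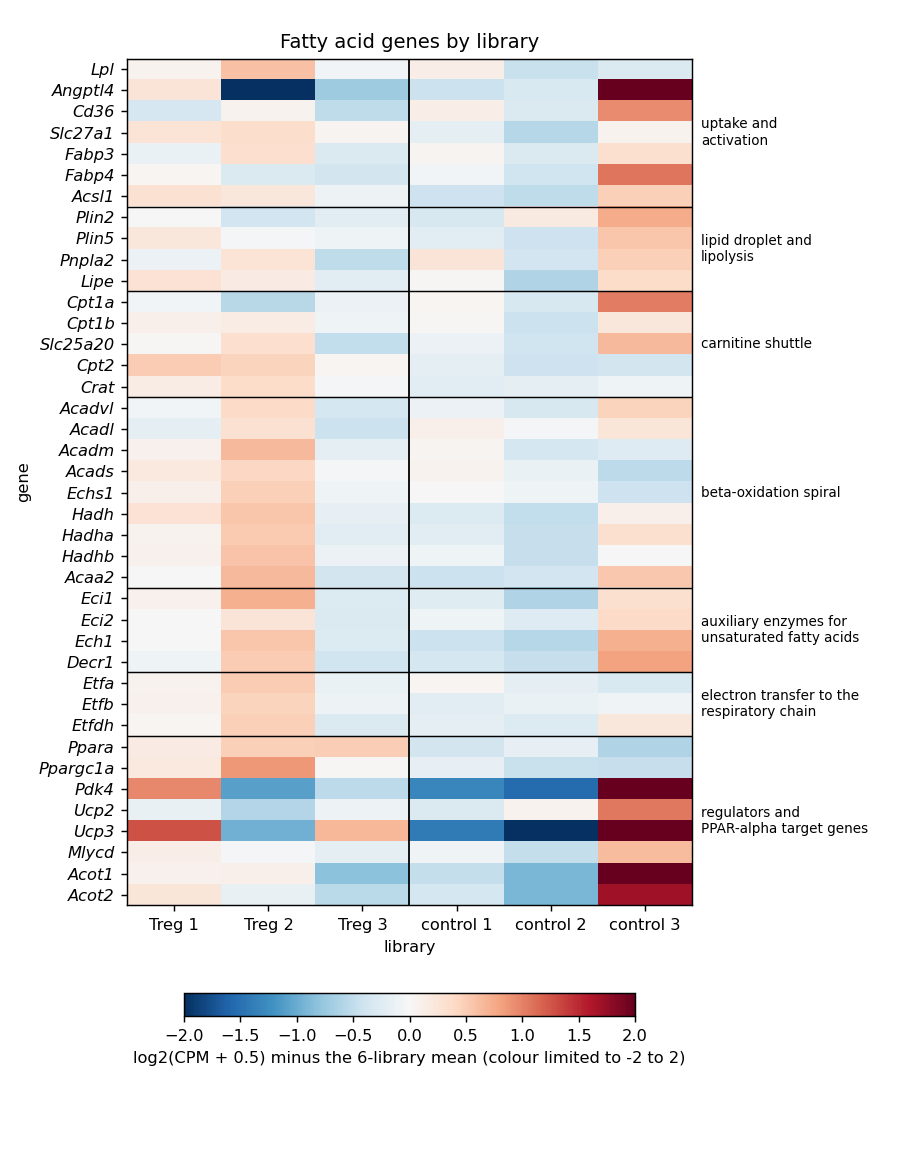
Colour shows log2(CPM + 0.5) of each of the 40 genes in each library minus the mean over the 6 libraries, with the Treg libraries left of the control libraries and genes ordered by role. Control replicate 3 is the highest library for 21 genes and Treg replicate 2 for 17, and the deepest reds of control replicate 3 are Angptl4, Pdk4, Ucp3, Acot1 and Acot2.

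Both regulators had every Treg library above every control library. Ppara (chromosome 15, 85734983 to 85802819, plus strand, GRCm38) encodes PPAR-alpha itself. It had 29.1, 36.0 and 36.5 CPM in the Treg libraries, against 19.9, 22.8 and 16.8 CPM in the control libraries. The lowest Treg value exceeded the highest control value, and the means were 33.8 ± 4.12 CPM in the Treg group and 19.8 ± 3.00 CPM in the control group (SD, n = 3 each). The log2 fold change was 0.77 ± 0.16 (SE) with an adjusted p of 0.136 in edgeR and 0.0062 in DESeq2. Control replicate 3 held the lowest of the 6 values, yet the fold change without it was still 0.66 (adjusted p = 0.0645, edgeR).

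Ppargc1a (chromosome 5, 51454250 to 51567726, minus strand) encodes PGC-1-alpha, the coactivator that drives mitochondrial gene expression. Its levels were 90.3, 143.5 and 79.6 CPM in the Treg libraries, against 69.9, 57.3 and 56.7 CPM in the control libraries. Treg replicate 2 was well above the rest, and the groups did not overlap. The log2 fold change was 0.77 ± 0.23 (adjusted p = 0.218, edgeR; 0.0668, DESeq2), and 0.72 without control replicate 3. Leaving out Treg replicate 2 gave 0.47.

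The inner gate of the carnitine shuttle had the same order of groups. Cpt2 (chromosome 4, 107903981 to 107923610, minus strand) encodes carnitine palmitoyltransferase 2, which turns acylcarnitine back into acyl-CoA inside the mitochondrion. It had 107.7, 103.5 and 77.8 CPM in the Treg libraries, against 65.9, 56.9 and 58.7 CPM in the control libraries. No Treg value fell within the control range, and the means were 96.3 ± 16.2 CPM in the Treg group and 60.5 ± 4.77 CPM in the control group. The log2 fold change was 0.67 ± 0.16 (adjusted p = 0.159, edgeR; 0.0165, DESeq2), nearly the same without control replicate 3 at 0.65.

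Crat, carnitine acetyltransferase, which exports surplus acetyl groups as acetylcarnitine, had 284, 328 and 251 CPM in the Treg libraries, against 218, 226 and 241 CPM in the control libraries. The gap between the groups was small, and the log2 fold change was 0.33 ± 0.15 (adjusted p = 0.315, edgeR). The outer gate showed no such separation. Cpt1b, the muscle form of carnitine palmitoyltransferase 1 and the entry step of the shuttle, had 235, 242 and 205 CPM in the Treg libraries, against 223, 163 and 256 CPM in the control libraries, and the groups overlapped (log2 fold change 0.09 ± 0.19, and 0.24 without control replicate 3). In the annotation, 91.1% of the 101-base windows of its transcript also lie in the overlapping gene Gm44502, which has no row in the table analysed; how such reads were counted is not stated. Cpt1a, the liver form, had 50.4, 35.7 and 48.5 CPM in the Treg libraries, against 54.1, 42.0 and 106.9 CPM in the control libraries, with control replicate 3 alone setting the control group apart. Its log2 fold change was −0.59 ± 0.34 with all libraries and −0.10 without that one. Slc25a20, the carnitine-acylcarnitine carrier, ranged from 62.0 to 110.0 CPM in the Treg libraries and from 66.5 to 138 CPM in the control libraries, with a log2 fold change of −0.13 ± 0.31 that was 0.24 without control replicate 3.

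**Figure D2:**
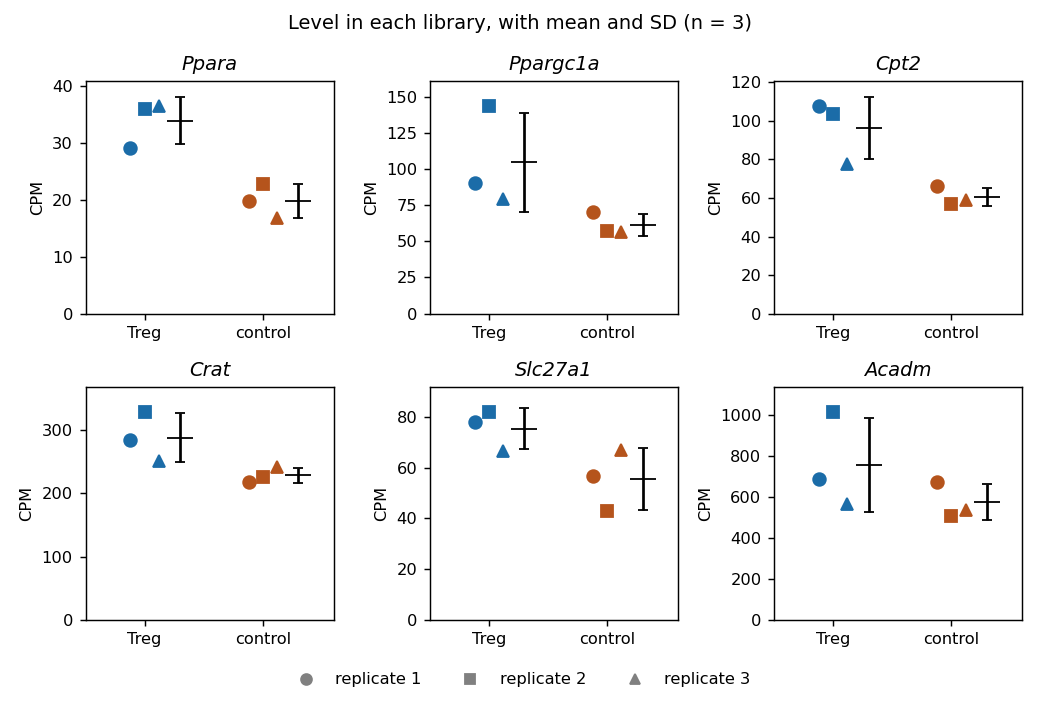
Levels in CPM of Ppara, Ppargc1a, Cpt2, Crat, Slc27a1 and Acadm in each library, with the Treg group left of the control group, marker shape for the replicate number, and bars for mean and SD (n = 3). For the first 4 genes every Treg point lies above every control point, while for Slc27a1 and Acadm the groups overlap.

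Promoter sequence next to the annotated start is shown for the 4 members with the smallest p, Ppara, Cpt2, Ppargc1a and Slc27a1, and for the neighbouring relatives Acot1 and Acot2, since PPAR-alpha is known to act through repeats of the 6-base motif AGGTCA. Ucp3 was added after its values were seen because it holds 2 copies of the motif. Each is the 150 bases upstream of the start, from the RefSeq table for GRCm38.p6, written 5′ to 3′ on the gene's own strand; RefSeq and GENCODE starts can differ, and for Ppara the window lies inside the GENCODE gene. Capitals mark AGGTCA or its complement TGACCT.
Ppara, chr15:85735626-85735775, plus strand: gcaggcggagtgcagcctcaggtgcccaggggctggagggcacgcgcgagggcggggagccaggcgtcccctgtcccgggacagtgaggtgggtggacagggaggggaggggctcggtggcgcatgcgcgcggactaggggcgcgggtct
Cpt2, chr4:107923590-107923739, minus strand: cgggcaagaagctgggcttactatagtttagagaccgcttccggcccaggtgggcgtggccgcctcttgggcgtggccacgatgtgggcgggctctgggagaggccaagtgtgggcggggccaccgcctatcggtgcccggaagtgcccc
Ppargc1a, chr5:51567726-51567875, minus strand: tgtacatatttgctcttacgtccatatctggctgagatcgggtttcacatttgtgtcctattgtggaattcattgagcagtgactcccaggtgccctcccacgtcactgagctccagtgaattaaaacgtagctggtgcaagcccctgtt
Slc27a1, chr8:71568721-71568870, plus strand: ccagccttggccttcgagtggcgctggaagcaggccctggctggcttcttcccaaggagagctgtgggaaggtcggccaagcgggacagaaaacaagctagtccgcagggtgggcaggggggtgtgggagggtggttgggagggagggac
Acot1, chr12:84009352-84009501, plus strand: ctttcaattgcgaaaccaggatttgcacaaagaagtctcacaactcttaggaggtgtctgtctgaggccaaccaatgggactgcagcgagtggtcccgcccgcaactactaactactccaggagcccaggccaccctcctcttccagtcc
Acot2, chr12:83987711-83987860, plus strand: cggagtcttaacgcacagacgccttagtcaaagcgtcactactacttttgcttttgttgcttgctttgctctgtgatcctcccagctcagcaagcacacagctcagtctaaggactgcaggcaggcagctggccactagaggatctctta
Ucp3, chr7:100472841-100472990, plus strand: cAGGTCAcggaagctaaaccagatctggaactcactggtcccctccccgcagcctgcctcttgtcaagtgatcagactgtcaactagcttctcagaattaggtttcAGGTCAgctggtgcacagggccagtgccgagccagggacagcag
In the 250 bases upstream of the start, 33 of the 40 members had a RefSeq window, and AGGTCA on either strand was present in 8 of them (24.2%; 15.8% of 27025 genes): Acadm, Acadvl, Cd36, Cpt1a, Echs1, Plin2, Plin5 and Ucp3. Searched the same way, the PPAR element, 2 copies of AGGTCA with 1 base between them, was in 0 of the 33 members and in 0.0407% of all genes. Its looser form with 2 copies of AGGNCA was in 0 members and 0.3996% of all genes, and the ERR element TCAAGGTCA in 0 members and 0.4218%. These patterns overlap with AGGTCA. These matches describe letters in a short window only.

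Among the uptake genes, Slc27a1, a fatty acid transport protein of the cell surface, had 77.9, 81.9 and 66.6 CPM in the Treg libraries, against 56.6, 42.8 and 67.1 CPM in the control libraries. Only the lowest Treg value fell within the control range. The log2 fold change was 0.44 ± 0.18 (adjusted p = 0.292, edgeR), 0.60 without control replicate 3 and 0.29 without control replicate 2. Acsl1, the main acyl-CoA synthetase of heart, had 593, 564 and 447 CPM in the Treg libraries, against 363, 339 and 671 CPM in the control libraries. Every Treg value lay above control replicates 1 and 2 and below control replicate 3, and the log2 fold change was 0.22 ± 0.28 with that library and 0.61 without it.

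Cd36, the membrane fatty acid translocase, had 1040, 1373 and 919 CPM in the Treg libraries, against 1438, 1070 and 2523 CPM in the control libraries. Its log2 fold change of −0.59 ± 0.33 (adjusted p = 0.396, edgeR) was −0.18 without control replicate 3, the library with the highest value. Fabp3, the heart fatty acid binding protein, had 1887, 2626 and 1690 CPM in the Treg libraries, against 2165, 1704 and 2579 CPM in the control libraries, so the groups covered nearly the same range (log2 fold change −0.06 ± 0.23). Per kilobase of exon Fabp3 was the most abundant of the 40 members, at 2562 CPM per kb averaged over all libraries, with Acadl at 411 and Cd36 at 388 next; per kilobase of coding sequence it was again highest at 5284, with Lpl at 1895 and Fabp4 at 1293 next. Of its 101-base windows, 21.6% also occur in the pseudogene Fabp3-ps1.

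Lpl, lipoprotein lipase, ranged from 2535 to 3930 CPM in the Treg libraries and from 1920 to 2865 CPM in the control libraries (log2 fold change 0.41 ± 0.24, and 0.19 without Treg replicate 2, which held the highest value). Angptl4, a secreted inhibitor of that lipase and a PPAR target, had 9.17, 1.41 and 4.43 CPM in the Treg libraries, against 5.47, 6.02 and 76.3 CPM in the control libraries. Control replicate 3 alone carried the difference: the log2 fold change was −2.54 ± 1.13 (adjusted p = 0.315, edgeR) with it and −0.20 without it. Fabp4, a binding protein of capillary endothelium and fat cells, ranged from 368 to 490 CPM in the Treg libraries and reached 458, 360 and 1005 CPM in the control libraries, with a log2 fold change of −0.55 with all libraries and 0.02 without control replicate 3. The sum of 12 endothelial markers was 854 to 1017 CPM in the Treg libraries, against 952, 758 and 1154 CPM in the control libraries, so it was highest in control replicate 3 as well. Single markers differed: Pecam1 had 137 to 150 CPM in the Treg libraries, against 157, 128 and 263 CPM in the control libraries, whereas Cdh5 had 131 to 171 CPM in the Treg libraries, against 136, 112 and 127 CPM in the control libraries. The adipocyte marker sum over 11 genes was also highest there: it was 29.02 to 34.4 CPM in the Treg libraries, against 35.2, 33.8 and 42.9 CPM in the control libraries. Nearly all of it came from 2 genes that lay in opposite directions, Cidea with a log2 fold change of −0.98 and Slc36a2 with 1.04 (DESeq2 adjusted p 0.0067 for Cidea and 0.0142 for Slc36a2). The other markers were low, with Elovl3 at 0 in all and Adipoq, Plin1, Retn, Lep, Cidec, Ucp1 and Pck1 under 1 CPM in all. Cfd had 1.70 CPM in Treg replicate 3 and 0 CPM in control replicate 3. Cidec, Plin1 and Adipoq were also highest in Treg replicate 3, at 0.66, 0.25 and 0.19 CPM. None of the low markers that were detected was highest in control replicate 3. The part of endothelial or fat cells in the Fabp4 value was not tested.

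The lipid droplet genes did not separate the groups. Plin2 and Plin5, which coat droplets, ranged from 44.0 to 57.4 and from 44.4 to 55.3 CPM in the Treg libraries, and from 45.8 to 96.4 and from 35.1 to 69.3 CPM in the control libraries. The lipases Pnpla2 and Lipe, which release fatty acids from stored triglyceride, had log2 fold changes of −0.25 and 0.11. Without control replicate 3 the fold changes were −0.14 for Plin2 (−0.46 with it), 0.36 for Plin5 (0.01 with it), −0.06 for Pnpla2 and 0.36 for Lipe. Pnpla2 ranged from 112 to 192 CPM in the Treg libraries and from 122 to 222 CPM in the control libraries, and Lipe from 17.6 to 25.3 CPM in the Treg libraries and from 13.5 to 26.8 CPM in the control libraries. Control replicate 3 was the highest library for all 4 genes of this role.

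The beta-oxidation spiral followed single libraries more than groups. Treg replicate 2 was the highest library for 8 of its 9 genes and for all 3 genes that pass the electrons on, and it was the highest for 17 of all 40 members (42.5%; background 15.9%). Acadm, medium-chain acyl-CoA dehydrogenase, had 688, 1016 and 568 CPM in the Treg libraries, against 675, 509 and 539 CPM in the control libraries. Its groups overlapped, with Treg replicate 2 far above the others and a log2 fold change of 0.40 ± 0.24 (adjusted p = 0.432, edgeR) that was 0.13 without that library. Hadha, the alpha subunit of the trifunctional protein that carries out the later steps on long chains, had 827, 1127 and 670 CPM in the Treg libraries, against 668, 572 and 975 CPM in the control libraries, a log2 fold change of 0.24 ± 0.27 that was 0.50 without control replicate 3. Leaving out Treg replicate 2 instead gave 0.02. Its partner Hadhb, the beta subunit, ranged from 923 to 1477 CPM in the Treg libraries and from 722 to 1007 CPM in the control libraries, and 52.6% of its windows also occur in the pseudogene Gm13910, which has values of its own.

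Fold changes were above 0 for 7 of the 9 spiral genes, and the median over the 9 was 0.34, beside 0.31 for the 12 cardiomyocyte markers. Without Treg replicate 2 the median of the spiral genes was 0.13. The values were 0.46 for Hadh, 0.38 for Acads, 0.37 for Hadhb, 0.34 for Echs1 and 0.18 for Acaa2, while the long-chain dehydrogenases Acadl and Acadvl had −0.18 and −0.01. Without control replicate 3, Acaa2 had 0.57 and Acadvl 0.24. These enzymes take turns on the same chain, with Acadvl, Acadl, Acadm and Acads acting on ever shorter ones, Echs1 hydrating, Hadh oxidizing and Acaa2 cleaving it. Treg replicate 2 also had the highest cardiomyocyte marker sum (78213 CPM) and the highest share of mitochondrially encoded counts (24.1%, against 20.8% to 23.4% in the other 5 libraries); their part in the spiral values was not tested. Per 100 CPM of those markers, the spiral genes summed to 7.43, 8.40 and 6.68 in the Treg libraries, against 6.60, 6.55 and 11.1 in the control libraries.

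The auxiliary enzymes that prepare unsaturated chains, Eci1, Eci2, Ech1 and Decr1, had a median log2 fold change of 0.04. Control replicate 3 was the highest library for 3 of these 4 genes, and the median without it was 0.55. Eci1 and Eci2 move double bonds, Ech1 is a dienoyl-CoA isomerase and Decr1 a dienoyl-CoA reductase. Decr1 ranged from 144 to 271 CPM in the Treg libraries and had 150, 138 and 333 CPM in the control libraries. Eci1 ranged from 96.1 to 191 CPM in the Treg libraries and from 76.5 to 146 CPM in the control libraries, and Eci2 from 57.5 to 83.7 CPM in the Treg libraries and from 58.5 to 91.4 CPM in the control libraries. For Decr1 and Eci2 the control library above the Treg range was replicate 3. Ech1 ranged from 370 to 662 CPM in the Treg libraries and had 334, 301 and 733 CPM in the control libraries. Etfa and Etfb form the flavoprotein that takes electrons from the acyl-CoA dehydrogenases, and Etfdh passes them to ubiquinone. They had log2 fold changes of 0.32, 0.30 and 0.17, with a median of 0.30 that was 0.11 without Treg replicate 2. Of the Etfb windows, 65.2% are shared with the overlapping gene Gm45233.

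Control replicate 3 decided the PPAR-alpha target genes. Pdk4 (chromosome 6, 5483351 to 5496309, minus strand), the kinase that shuts off pyruvate dehydrogenase and so favours fat over glucose, had 347, 83.3 and 124 CPM in the Treg libraries, against 72.0, 60.9 and 1997 CPM in the control libraries. That single value was 24.0 times the median of the other 5 libraries. The log2 fold change was −1.94 ± 1.31 (adjusted p = 0.472, edgeR) with all libraries and 1.47 ± 0.68 (adjusted p = 0.346, edgeR) without it, when every Treg value lay above both remaining control values.

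Ucp3 (chromosome 7, 100472990 to 100486432, plus strand), a mitochondrial carrier protein of muscle, had 15.1, 2.81 and 9.67 CPM in the Treg libraries, against 1.93, 1.13 and 34.0 CPM in the control libraries. The order was the same as for Pdk4, with control replicate 3 highest, the other control libraries lowest and the Treg libraries between. Its log2 fold change was −0.42 ± 1.18 with all libraries and 2.59 ± 0.82 (adjusted p = 0.208, edgeR) without that one. Its neighbour Ucp2, a related carrier, ranged from 57.9 to 80.9 CPM in the Treg libraries and had 70.8, 91.5 and 180 CPM in the control libraries, with a log2 fold change of −0.66 with all libraries and −0.17 without control replicate 3.

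The acyl-CoA thioesterases Acot1 and Acot2 stand side by side on chromosome 12. Acot1, the cytosolic enzyme, had 4.72, 4.76 and 2.29 CPM in the Treg libraries, against 3.02, 2.12 and 19.6 CPM in the control libraries. Acot2, the mitochondrial enzyme, had 27.2, 20.7 and 15.5 CPM in the Treg libraries, against 17.8, 11.9 and 75.2 CPM in the control libraries. Both were far higher in control replicate 3 than in any other library, and outside it the groups overlapped. The log2 fold change of Acot1 was −1.07 ± 0.81 with all libraries and 0.61 without control replicate 3, and that of Acot2 was −0.73 ± 0.64 and 0.51. The genes share sequence, with 17.0% of the Acot2 windows found in Acot1, so their counts are not fully separate. Mlycd, malonyl-CoA decarboxylase, which lifts the malonyl-CoA brake on the shuttle, ranged from 37.6 to 46.8 CPM in the Treg libraries and from 30.5 to 66.8 CPM in the control libraries, with a log2 fold change of −0.13 that was 0.24 without control replicate 3.

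**Figure D3:**
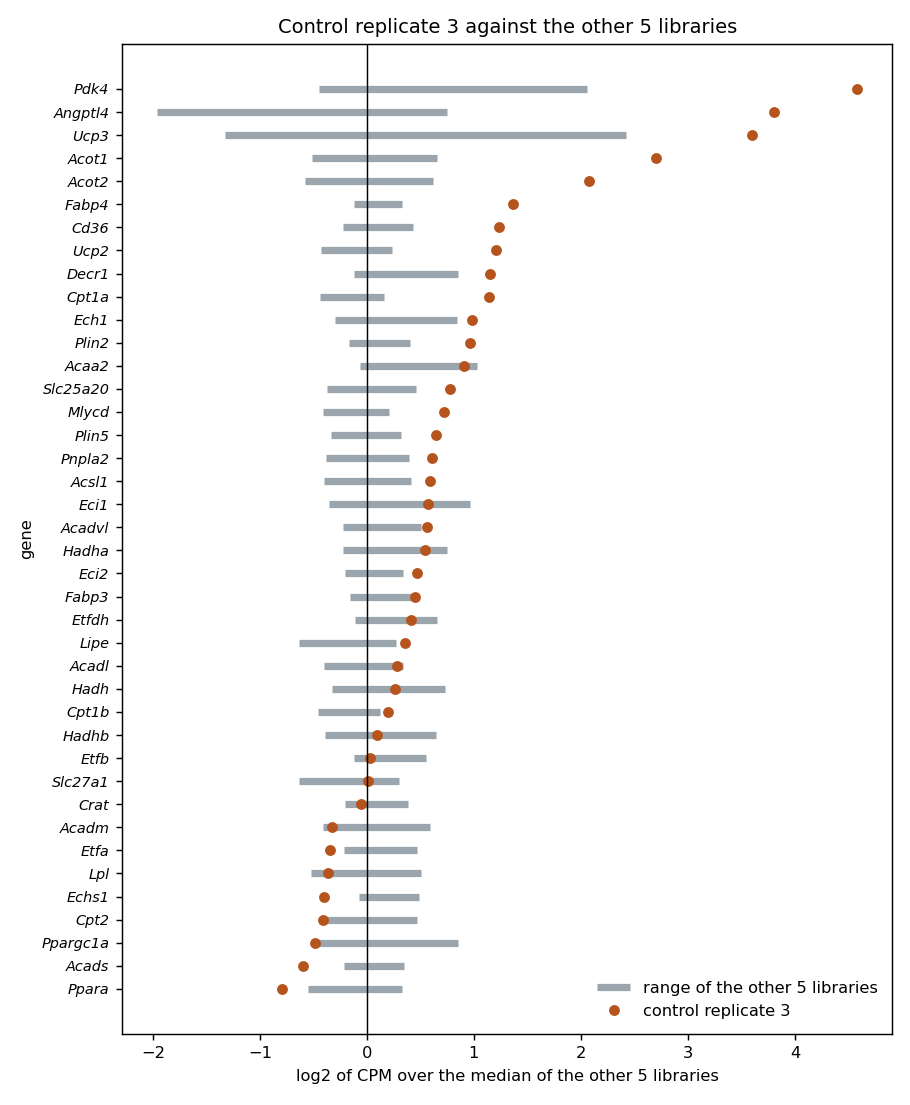
Points show the log2 of CPM in control replicate 3 over the median of the other 5 libraries for each of the 40 genes, and bars show the range of those 5. Pdk4, Angptl4, Ucp3, Acot1 and Acot2 lie far right of the bars, and 5 genes, Ppara and Acads among them, lie left of them.

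In all, 9 members exceeded every other library by more than 1.5 times in control replicate 3 (22.5%; background 7.08%): Angptl4, Pdk4, Acot1, Acot2, Ucp3, Fabp4, Cpt1a, Ucp2 and Cd36. None lay below every other library by that factor, beside 10.8% of all genes. In the same library Ppara was at 0.579 and Ppargc1a at 0.713 of the median of the other 5. Cd36, Pdk4, Ucp3, Ppara and Ppargc1a were among the 10 members chosen by name. The other members listed, Csf3r, Cd3e, Cd3d, Cd3g, Trac, Oxct1 and the regulatory T cell genes below were named after their values were seen. Neutrophil markers summed to 8.70 to 19.1 CPM in the Treg libraries, against 7.26, 10.4 and 41.4 CPM in the control libraries, although Csf3r of that list was at 5.72 CPM in control replicate 3 and at 4.33 to 7.09 CPM in the Treg libraries. Erythroid markers summed to 1073 to 1920 CPM in the Treg libraries, against 2851, 1277 and 292 CPM in the control libraries. Cd3e, a T cell gene, had 0.396 to 0.577 CPM in the Treg libraries, against 2.88, 1.19 and 15.7 CPM in the control libraries. Other T cell genes did not follow it, with Cd3d at 0.10 CPM and Cd3g and Trac at 0 CPM in control replicate 3. Of the 5 tested genes in the regulatory T cell list, 4 had a fold change above 0 (80.0%, beside 48.0% of all genes). These were Foxp3, Il2ra, Ikzf2 and Cd4, all low, with means over all libraries of 1.63, 0.68, 3.62 and 0.38 CPM. Foxp3 had 1.51 to 1.76 CPM in the Treg libraries and 1.42 to 1.72 CPM in the control libraries (log2 fold change 0.04). The fifth gene, Cd3e, had a log2 fold change of −3.76. Oxct1, the enzyme that lets heart burn ketones, had 1127, 1096 and 1009 CPM in the Treg libraries, against 875, 904 and 202 CPM in the control libraries. The part of other cells or of RNA quality in these values was not tested.

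The picture of the whole set depended on control replicate 3. Without it the median log2 fold change was 0.27 for the 12 cardiomyocyte markers and 0.00 for all genes. For the members it was 0.36, and 33 of 40 (82.5%) had a fold change above 0, beside 50.5% of all genes. At an unadjusted p under 0.05, 10 were higher in the Treg group (25.0%; background 9.74%) and 0 were lower (background 8.80%), and for 14 all Treg libraries lay above both remaining control libraries (35.0%; background 19.5%). Still 0 members passed an adjusted p of 0.05, while 230 of 17648 genes did (1.30%, edgeR). For the 8 regulators and target genes, the median was −0.54 with all libraries and 0.64 without control replicate 3, and 2 and then 7 of the 8 lay above 0. Control replicate 2, in turn, was the lowest library for 20 of the 40 members (50.0%; background 15.5%), and without it the median of the 40 was −0.11. It had the highest macrophage marker sum (985 CPM, against 396 to 592 CPM in the Treg libraries) and the highest fibroblast marker sum (5883 CPM, against 3690 to 5133 CPM). Most of the listed markers did not follow these sums. Of the macrophage markers, only Adgre1, Cd68 and Lyz2 were highest in control replicate 2, with Lyz2 alone at 644 CPM. Csf1r, C1qa, C1qb and Fcgr1 were highest in Treg replicate 3, and Mrc1 in control replicate 3. Of the fibroblast markers, only Col1a1, Col1a2 and Postn were highest in control replicate 2, and Dcn and Gsn were lowest there. The part of these cells in the member values was not tested.

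**Figure D4:**
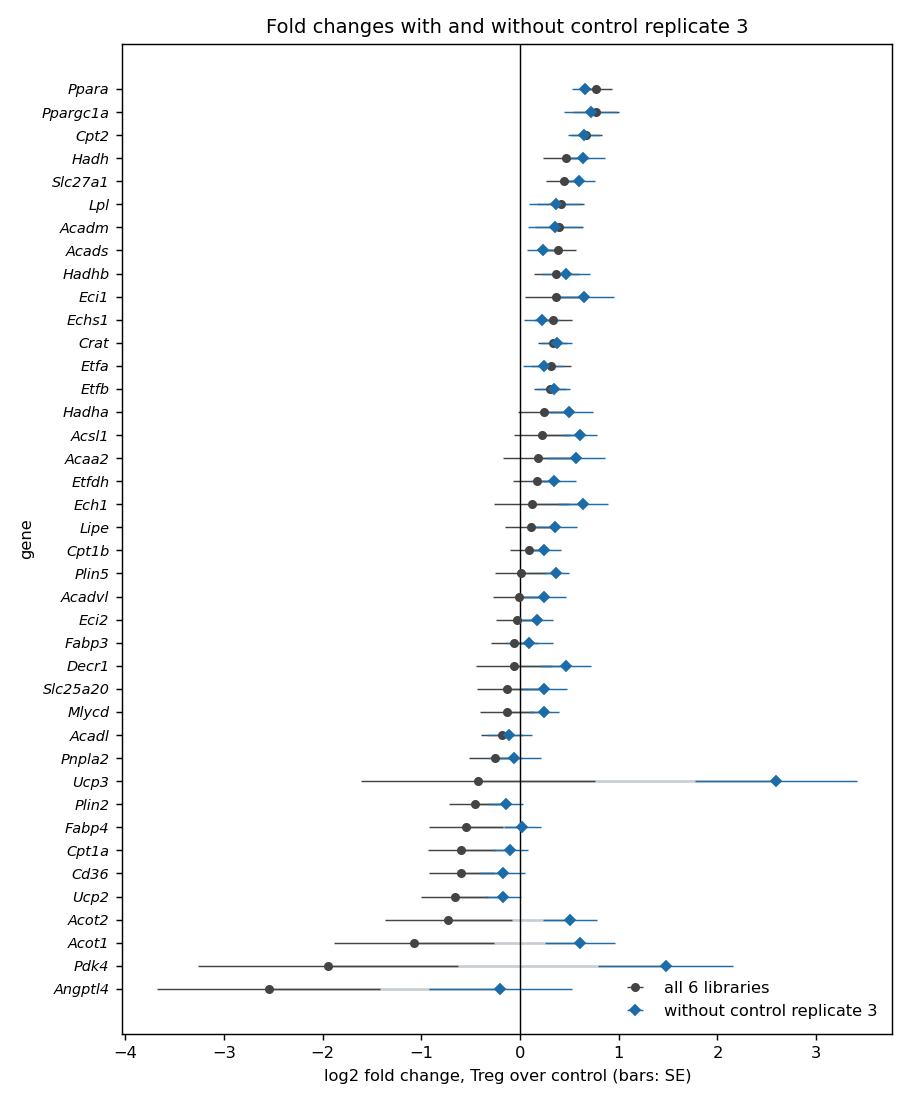
Log2 fold changes of Treg over control with their SE for the 40 genes, with all 6 libraries (circles) and without control replicate 3 (diamonds). Ppara, Ppargc1a and Cpt2 stay near 0.7 in both, whereas Ucp3, Pdk4, Acot1 and Acot2 lie below 0 with all libraries and above 0 without control replicate 3.

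The wider pathway was read from 8 lists holding 176 further genes, of which 161 were tested. None passed an adjusted p of 0.05 in edgeR. At an unadjusted p under 0.05, 26 were higher in the Treg group (16.1%, background 8.23%) and 11 were lower (6.83%, background 8.31%). The median log2 fold change was 0.18, beside −0.02 for all genes and 0.31 for the 12 cardiomyocyte markers. Without control replicate 3 the median was 0.12, beside 0.00 for all genes and 0.27 for those markers. DESeq2 called 13 of the 161 genes (8.07%, beside 3.71% of all genes). Of these, Acot9, Cidea, Hif1a, Prkab2 and Pdk3 were lower in the Treg group and the rest were higher. Among 28 further genes of mitochondrial oxidation and carnitine handling, 24 had a fold change above 0 (85.7%, beside 48.0% of all genes). That list also holds enzymes of amino acid and propionyl-CoA breakdown, such as Ivd, Gcdh and Pcca, so the count is not one of fatty acid oxidation alone. Slc22a5, which carries carnitine into the cell, had 21.3, 17.5 and 18.7 CPM in the Treg libraries, against 13.4, 12.2 and 12.6 CPM in the control libraries (log2 fold change 0.59 ± 0.14, adjusted p = 0.159, edgeR). The groups did not overlap. Acot9, a mitochondrial thioesterase, lay the other way, with 23.0, 25.7 and 24.3 CPM in the Treg libraries, against 36.5, 49.9 and 50.3 CPM in the control libraries (adjusted p = 0.104, edgeR).

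Of 26 further droplet and triglyceride genes, 15 had a fold change above 0 (57.7%; 48.0% of all genes). Ces1d, with the smallest p of this list, had 48.6, 36.2 and 28.7 CPM in the Treg libraries. Its control libraries had 2.81, 0.79 and 2.56 CPM (log2 fold change 4.20 ± 0.45, adjusted p = 0.0871, edgeR). Fitm1, which helps form droplets in muscle, had 38.2, 33.6 and 27.0 CPM in the Treg libraries, against 16.1, 18.7 and 16.1 CPM in the control libraries, with no overlap (log2 fold change 0.96 ± 0.16, adjusted p = 0.0989, edgeR). Gpam, the first enzyme of glycerolipid synthesis, averaged 150.3 ± 17.4 CPM in the Treg libraries and 87.4 ± 18.1 CPM in the control libraries. Cidea, a droplet protein, lay the other way, with 12.9, 18.7 and 13.2 CPM in the Treg libraries, against 24.7, 26.1 and 37.2 CPM in the control libraries (log2 fold change −0.98 ± 0.22, adjusted p = 0.156, edgeR). Hilpda, an inhibitor of the lipase Pnpla2, also had every Treg value below every control value, at 2.42 to 2.90 CPM in the Treg libraries and 3.26 to 7.17 CPM in the control libraries. Among 20 genes of the malonyl-CoA and pyruvate switch, 11 lay above 0 (55.0%). Pdk3, a relative of Pdk4, had 2.74, 2.81 and 2.61 CPM in the Treg libraries, against 5.93, 6.42 and 6.46 CPM in the control libraries (adjusted p = 0.0871, edgeR). Unlike Pdk4, it was alike in all control libraries. The 14 further PPAR-alpha target genes tested had a median log2 fold change of 0.32, and of 0.62 without control replicate 3. Of 22 peroxisomal genes 17 lay above 0 (77.3%), and of 28 PPAR, ERR and coregulator genes 17 (60.7%). Of 21 further uptake genes it was 13 (61.9%), and of 6 ketone body genes 5 (83.3%), beside 48.0% of all genes.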

How the data were processed

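Bulk RNA-seq of mouse left ventricle was compared between 3 Treg and 3 control libraries 9 days after TAC. Per the labels' protocols, stranded mRNA libraries were sequenced as paired 101-base reads. The submitters' processing notes name the build GRCm38, Cuffdiff 2.2.1, featureCounts 2.0.6, HISAT2 2.1.0 and Trimmomatic 0.39, without the role of each; the counting options were not given in the sources used here. As deposited by the authors, the data are 1 table of estimated counts, not normalized, in which 46.5% to 50.0% of values above 0 are fractional; if reads fitting several genes were divided, values of genes with near-identical copies are uncertain. A count model for whole numbers had been planned, so the estimated counts were rounded to the nearest whole number. The table has 6 further value columns that match no listed sample and were not used. Symbols and coordinates are those of GENCODE M21 (GRCm38), numbered from 1, matched for 47224 of 47729 IDs.

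Genes kept by filterByExpr were normalized by TMM, and the contrast was tested in edgeR 4.0.16 (R 4.3.3) by two-sided quasi-likelihood F tests with robust dispersions, no covariates and Benjamini-Hochberg adjustment over all genes. CPM use TMM-scaled library totals, and the SE is the absolute fold change over the root of F. The procedure was tested on simulated data. It recovered 43% of 100 genes given a true log2 change of 1 and 87% of 100 genes given 2, with 9 false calls. Changes of the size seen for most members could therefore be missed. The simulated libraries varied independently around the same mean for each gene, and none was set apart as control replicate 3 was. The recovery rates may therefore not hold for these data. Alternatives were DESeq2 1.42.0, limma-voom (limma 3.58.1), other scalings and filters, a replicate block and leaving out each library. Pairs of libraries differed by more than sampling noise, with chi-square between 17.71 and 136.5 per degree of freedom. The members and lists were chosen with earlier results of these data known. Values per library are given for members past an unadjusted p of 0.05 or with groups that do not overlap, for 10 chosen by name, and for others named after their values were seen; further pathway genes come from each list's 3 lowest p-values per direction.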

Additional observations from a re-analysis of the deposited data

How the results depend on the processing

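The count of genes past an adjusted p of 0.05 was 0 in edgeR, and it was 644 with DESeq2, 38 without a filter on low counts and 119 without both replicates 3, while 82 passed an adjusted p of 0.1. Leaving out 1 library gave 0 to 230, the highest without control replicate 3. For the 40 members the count was 0, with 2 under DESeq2 and 0 in every fit that left out 1 library. For the 161 further pathway genes it was 0, with 13 under DESeq2, 1 without a filter, 3 without both replicates 3, 3 at an adjusted p of 0.1, and 0 to 6 with 1 library left out. The median log2 fold change of the members, 0.10, was 0.46 without both replicates 3 and lay between −0.11 and 0.36 with 1 library left out. With the replicate number as a block, the replicate block fit called 0 genes and gave a median of 0.15. The deviations of same-numbered libraries from their group means correlated at −0.14, −0.24 and 0.04. With 3 libraries a group, 1 of them far from the rest, this cannot tell whether the numbers mark pairs. The labels do not say. In all, 23 members kept their direction in every fit that left out 1 library. The other 17 did not, with these lowest and highest values: Acaa2 −0.15 and 0.57, Acadvl −0.22 and 0.24, Acot1 −1.52 and 0.61, Acot2 −1.13 and 0.51, Cpt1b −0.0728 and 0.24, Decr1 −0.35 and 0.46, Ech1 −0.14 and 0.64, Eci2 −0.18 and 0.17, Etfdh −0.0543 and 0.34, Fabp3 −0.26 and 0.10, Fabp4 −0.81 and 0.0238, Lipe −0.12 and 0.36, Mlycd −0.35 and 0.24, Pdk4 −2.78 and 1.47, Plin5 −0.17 and 0.36, Slc25a20 −0.33 and 0.24, and Ucp3 −0.98 and 2.59. Without both replicates 3 the sign turned for Fabp3 (0.21), Fabp4 (0.0946), Pnpla2 (0.11), Slc25a20 (0.43), Acadvl (0.39), Acadl (0.0382), Eci2 (0.29), Decr1 (0.64), Pdk4 (1.68), Ucp3 (2.54), Mlycd (0.30), Acot1 (0.87) and Acot2 (0.68). It also turned with limma-voom for Acadvl (0.00), Decr1 (0.0126) and Ucp3 (0.84), with upper-quartile scaling (0.0005) and without a filter (0.0244) for Acadvl, and under the replicate block for Decr1 (0.0199) and Ucp3 (0.80). Apart from the left-out libraries the cause was not tested. With 3 libraries a group, the spread of control replicate 3 limits what can be called for the PPAR-alpha target genes.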
